A study of Drosophila melanogaster with 9 samples.

Results

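The response of the larval central nervous system (CNS) to loss of both elav and fne was described across genes, in 3 elav5/fne double mutant libraries against 3 libraries of Canton-S, a wild-type strain. The genes described are all those with a mean deposited value of at least 16 over these 6 libraries, which were 9427 of the 17421 genes in the table. elav5/fne animals carry deletion alleles of elav and of fne, and 3 libraries of the elav5 single mutant, which lacks elav alone, were used for the spread and for a second comparison. All animals were homozygous viable 1st instar larvae kept at 25 °C and picked by a visible marker, and the CNS was dissected from whole larvae, per the labels. fne alone was not tested by any sample used here. Strain background was not compared, and its effects cannot be told apart from those of the deletions. The sex of the larvae, the number pooled per library and whether libraries came from separate animals are not given in the labels, so p-values rest on the spread among libraries, and part or all of that spread may be technical.

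ELAV/Hu proteins are RNA-binding proteins found mainly in neurons. They bind U-rich RNA and act on alternative splicing and on the choice of the 3′ end, favouring distal polyadenylation sites and so longer 3′ UTRs in neurons. In Drosophila the family has the members elav, fne and Rbp9, and in the absence of ELAV an alternative FNE isoform enters the nucleus and takes over part of its role.

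Libraries read transcripts at their 3′ ends and held 15241461 to 18822734 reads assigned to genes, with 10712 to 11970 genes detected. Levels are in normalised CPM, the deposited value rescaled by 1 constant, and are not divided by gene length. Changes are differences of mean log2(normalised CPM + 1), elav5/fne minus Canton-S, with their standard error (SE), and understate the change of low genes. For genes at or near 0 in a genotype the change depends on the added 1 and bounds nothing. A gene was called when the Benjamini-Hochberg adjusted p of limma over all 9427 genes was under 0.05, and only called genes are said to rise or fall. A level at or below 3 reads, which is 0.150 to 0.196 normalised CPM, is at the floor of detection by counting error alone. Of the genes nearest the threshold of 16, lncRNA:CR45533, with 16.03, was inside and Cad96Cb, with 15.98, was outside. The samples express CNS genes: the neuronal synaptobrevin gene nSyb was at 784, 832 and 581 normalised CPM in elav5/fne and 1139, 1210 and 1259 in Canton-S, and the glial factor gene repo was at 28.4, 44.4 and 22.9 in elav5/fne and 42.4, 37.3 and 34.9 in Canton-S. repo did not pass the test (log2 change of -0.30, limma adjusted p = 0.32).

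Libraries differed in genes of other tissues. The 21 muscle genes tested summed to 3690, 6720 and 12100 normalised CPM in elav5/fne, 10600, 4100 and 1700 in elav5, and 2410, 2770 and 2380 in Canton-S. The 18 gut genes tested summed to 56.0, 557 and 1980 in elav5/fne, 1350, 27.4 and 58.7 in elav5, and 187, 26.5 and 57.5 in Canton-S, and of all 24 gut genes listed, 3 to 8 were at 0 in each elav5/fne library, against 6 to 11 in each Canton-S library. Among the elav5/fne libraries, replicate 3 was highest in both sums and replicate 1 lowest.

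Transcripts of both deleted genes were low in elav5/fne. elav was at 30.4, 71.3 and 34.2 normalised CPM in elav5/fne, against 1582, 1630 and 1717 in Canton-S. fne was at 325, 522 and 278 in elav5/fne, against 4422, 5453 and 5248 in Canton-S. No elav5/fne library reached the Canton-S range for either gene, and replicate 2 was the highest mutant library for both. The log2 changes were -5.25 for elav (limma adjusted p = 2.49e-06) and -3.79 for fne (adjusted p = 1.64e-06). With 3 libraries against 3, exact permutation tests gave p = 0.1 for each, the smallest two-sided p this design allows. elav overlaps arg and has an overlapping gene on its own strand, so some of its reads may belong to a partner under any strand setting. fne overlaps another annotated gene on the other strand, so with an unknown strand setting some of its reads may belong to that gene. Rbp9, the remaining family member, was at 3.28, 4.14 and 7.80 in elav5/fne and 1.90, 3.52 and 2.58 in Canton-S, with overlapping ranges and no call (log2 change of 0.68, limma adjusted p = 0.123).

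Of the 9427 genes, 4124 were called (43.7%), of which 2476 were higher in elav5/fne (26.3% of all genes) and 1648 lower (17.5%). More than 2-fold changes numbered 1494 upward and 613 downward, more than 4-fold changes 522 and 143, and more than 8-fold changes 147 and 40. The median change was 1.2 among the genes called higher, -0.84 among those called lower and 0.15 over all 9427. TMM scaling shifted the median of all genes by 0.13, to 0.02, and gave 2116 higher and 2163 lower. The higher share of the calls was therefore 49.5% with TMM and 60.0% with the deposited scaling. The 2 scalings differ only by 1 factor per library, so that no gene was called in opposite directions by them tests nothing. Values of the libraries did not overlap between both genotypes for 5514 genes (58.5%).

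**Figure D1:**
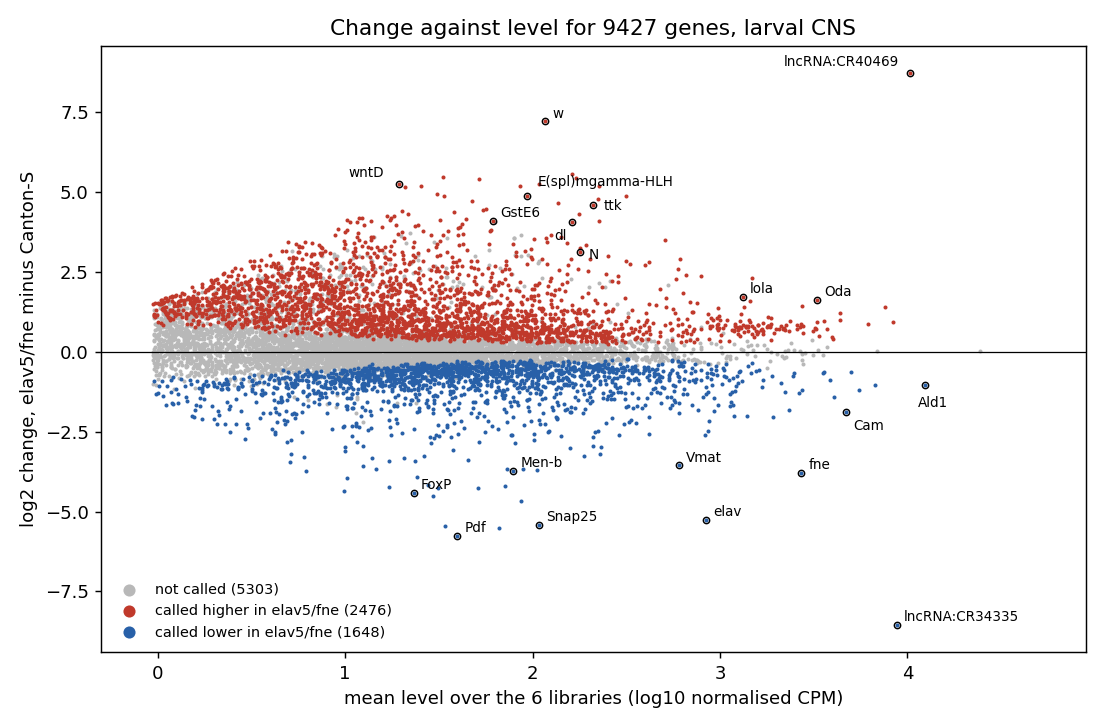
Log2 change of each of the 9427 genes (elav5/fne minus Canton-S, y axis) against its mean level over the 6 libraries in log10 normalised CPM (x axis). Coloured points are the 2476 genes called higher and the 1648 called lower, and rises over 8-fold (147) outnumber falls over 8-fold (40).

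The genes called higher took 47.4% ± 0.928 of each library's total in elav5/fne, 34.3% ± 1.78 in elav5 and 24.8% ± 0.108 in Canton-S (mean ± SD, n = 3 each). The genes called lower took 18.4% ± 0.926 in elav5/fne, 30.3% ± 2.56 in elav5 and 40.4% ± 0.651 in Canton-S. These genes were chosen by the same elav5/fne and Canton-S values, so those 2 shares describe the size of the response and test nothing. The elav5 libraries, which did not choose the direction of any call, had intermediate shares.

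Genes that encode signalling peptides of neurons fell. Of 34 neuropeptide and peptide hormone precursor genes, 29 fell and 2 rose (85.3% lower, against 17.5% of all genes), with a median change of -1.89 against 0.15 over all genes. Their summed level was 554, 574 and 469 normalised CPM in elav5/fne, 1660, 1660 and 2040 in elav5, and 2070, 2100 and 2180 in Canton-S. In a bulk sample, fewer cells of a type and less RNA per cell cannot be told apart.

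Pdf, the neuropeptide gene of clock neurons, was at 0.185, 1.34 and 0.127 normalised CPM in elav5/fne, against 81.9, 77.7 and 76.3 in Canton-S. It was near the floor in elav5/fne replicates 1 and 3. Its change was -5.77 (SE 0.28, limma adjusted p = 1.09e-06). Eh, which encodes eclosion hormone, a trigger of moulting behaviour, was at 0.124, 0.969 and 0.698 in elav5/fne and 76.1, 53.5 and 72.5 in Canton-S. The change was -5.44. Orcokinin had 0.865, 2.64 and 1.40 in elav5/fne and 57.5, 59.1 and 55.8 in Canton-S, a change of -4.53. FMRFa and Dh31, a diuretic hormone gene, changed by -3.43 and -2.16. The libraries of the 2 genotypes did not overlap for 33 of the 34 precursor genes, against 58.5% of all genes. The 2 precursors that rose were ETH, which encodes ecdysis triggering hormone, and CNMa, at changes of 1.68 and 1.12, and the 3 without a call were Hug, Ptth and Trissin, at -0.45, -0.52 and 0.01. These 5 were named after their values were seen.

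Insulin-like peptides followed. Ilp2, a product of brain neurosecretory cells, was at 2.16, 3.34 and 0.698 normalised CPM in elav5/fne, against 122, 137 and 129 in Canton-S, a change of -5.51 (SE 0.33, limma adjusted p = 3.22e-06). Ilp5 and Ilp3 were low in both genotypes and fell, and Ilp7 fell by 1.37, so that 4 of 5 insulin-like genes were lower. Ilp3 lost its call when any of 3 single libraries was left out. Ilp6 did not pass the test (0.11). Gpb5, a subunit gene of a glycoprotein hormone, fell by 4.19. Reads of Ilp2 may include those of a gene it overlaps on the same strand.

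Of 9 peptide processing genes, 3 fell and 2 rose (33.3% and 22.2%, against 17.5% and 26.3% of all genes). With TMM scaling 6 fell and 2 rose. amon, the prohormone convertase gene, was at 101, 98.0 and 88.0 normalised CPM in elav5/fne and 171, 171 and 189 in Canton-S, a change of -0.88 (SE 0.088, limma adjusted p = 4.97e-05). Pal2, a peptide amidation enzyme gene, fell by 1.59 while its relative Pal1 rose by 0.99. The precursors Pdf, Ilp2 and Eh therefore changed by more than 5 on the log2 scale and no processing gene called by more than 1.59.

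**Figure D2:**
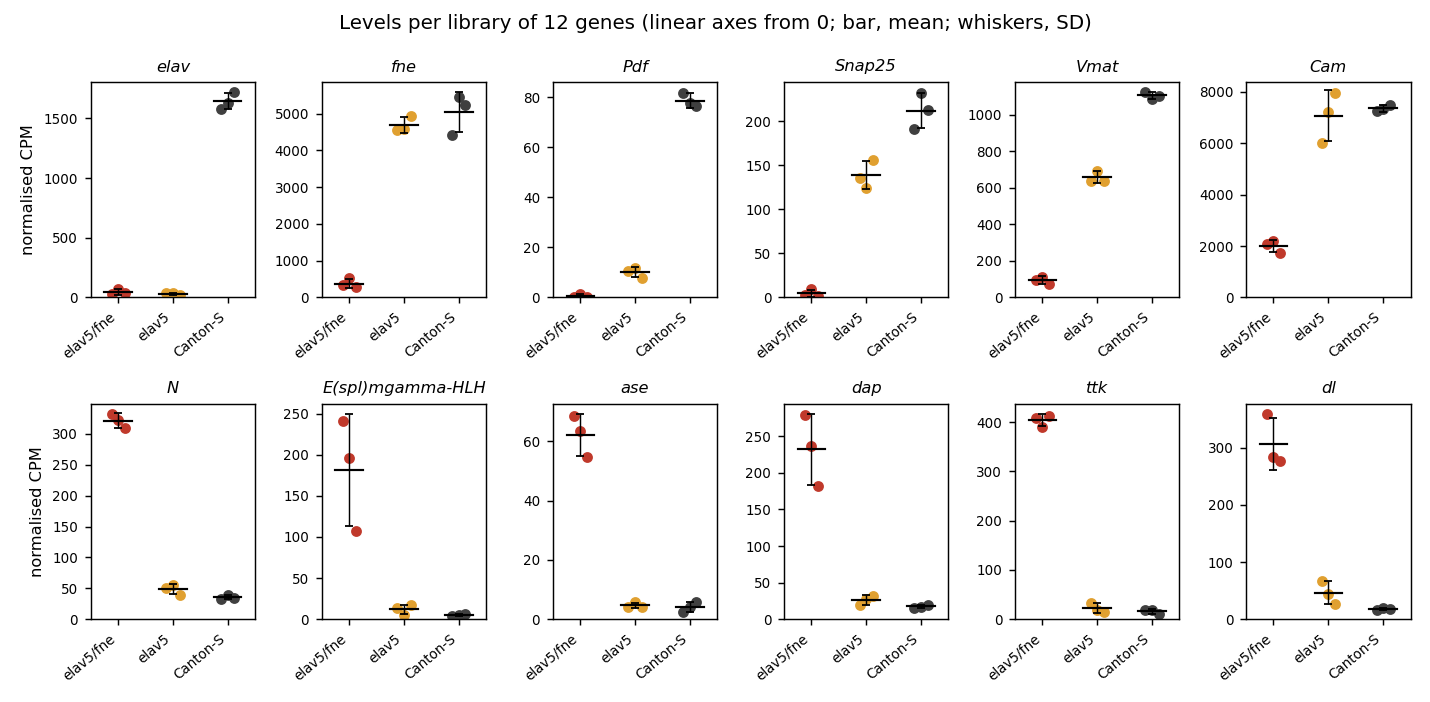
Levels of selected genes in each library, in normalised CPM on linear axes from 0, with elav5/fne left of elav5 and Canton-S; points are the 3 libraries of a genotype, bars the mean and whiskers the SD. Pdf, Snap25, Vmat and Cam are low in all 3 elav5/fne libraries, and N, E(spl)mgamma-HLH, ase, dap, ttk and dl are high in them.

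Receptor genes for these peptides had a smaller median change. Of 36 neuropeptide receptor genes, 18 fell and 1 rose, with a median of -0.71. TrissinR was at 2.53, 2.85 and 2.16 normalised CPM in elav5/fne and 16.5, 15.3 and 18.9 in Canton-S, a change of -2.35, and SIFaR and AstC-R2 changed by -1.83 and -1.60. hec, a receptor gene that lies beside fne, is described with the neighbours of fne.

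Genes of the synapse fell as a group. Of 25 genes of synaptic vesicle release, 19 fell and 1 rose, with a median of -0.73. Snap25, which encodes a SNARE of the plasma membrane that drives vesicle fusion, was at 2.78, 9.20 and 2.16 normalised CPM in elav5/fne, 138 on average in elav5, and 192, 232 and 212 in Canton-S. Its change was -5.42 (SE 0.36, limma adjusted p = 5.18e-06), and elav5/fne replicate 2 was its highest mutant library. Syx1A, the partner SNARE gene, was at 684, 670 and 598 in elav5/fne and 1595, 1527 and 1707 in Canton-S (-1.31), and Rop, the Munc18 gene that binds syntaxin, changed by -1.80. The 2 SNARE genes of the same membrane therefore differed in the size of their fall. Snap25 and Syx1A each overlap another gene on the same strand.

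Of 7 genes of synaptic vesicle endocytosis, 5 fell and none rose. shi, the dynamin gene, was at 595, 608 and 520 normalised CPM in elav5/fne and 1784, 1689 and 1654 in Canton-S, a change of -1.57 (limma adjusted p = 5.30e-06). Dap160 and lap, which encode its endocytic partners intersectin and AP180, changed by -1.34 and -0.90.

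Transmitter synthesis and transport had the most uniform fall among neuronal groups, with 15 of 16 genes lower, none higher and a median of -1.46. Vmat, the vesicular monoamine transporter gene, was at 98.2, 114 and 72.4 normalised CPM in elav5/fne, 657 on average in elav5, and 1126, 1090 and 1105 in Canton-S, a change of -3.56 (SE 0.14, limma adjusted p = 5.25e-07). ChAT, which makes acetylcholine, was at 174, 161 and 133 in elav5/fne and 543, 502 and 536 in Canton-S (-1.76). DAT, the dopamine transporter gene, and Hdc, which makes histamine, changed by -2.12 and -1.94. SerT, VGAT, Gad1 and VGlut, genes for serotonin, GABA and glutamate neurons, changed by -1.94, -2.33, -1.42 and -0.75, so that members for each of these transmitters were lower. The remaining gene was ple, tyrosine hydroxylase, which was at 14.96, 23.4 and 22.96 in elav5/fne and 18.6, 19.1 and 20.1 in Canton-S and did not pass the test (0.05, adjusted p = 0.856). SerT, VGAT, Gad1, VGlut and ple were named after their values were seen.

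Among receptors for transmitters, 5 of 10 nicotinic acetylcholine receptor subunit genes and 22 of 32 other receptor genes fell, with medians of -0.38 and -0.63. Only the nicotinic subunits nAChRalpha7 and nAChRalpha4 fell over 2-fold in their list. nAChRalpha7 was at 118, 133 and 108 normalised CPM in elav5/fne and 670, 724 and 744 in Canton-S, a change of -2.57, and nAChRalpha4 changed by -2.60. The metabotropic glutamate receptor gene mGluR was at 77.3, 63.9 and 62.5 in elav5/fne and 228, 243 and 243 in Canton-S (-1.80, SE 0.11, limma adjusted p = 3.23e-06).

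Of 32 voltage-gated and potassium channel genes, 22 fell and 2 rose, with a median of -0.80. qvr, which encodes a regulator of the Shaker channel also known as sleepless, was at 27.4, 25.9 and 23.1 normalised CPM in elav5/fne and 176, 183 and 177 in Canton-S, a change of -2.77 (SE 0.10, limma adjusted p = 5.25e-07). slo, the calcium-activated potassium channel, Ih, the hyperpolarisation-activated channel, and unc80, a subunit of the sodium leak channel complex, changed by -1.66, -1.41 and -1.76. These 4 genes have the smallest p of their list. The libraries of the 2 genotypes did not overlap for 27 of the 32 genes, against 58.5% of all genes.

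Genes for the shape and wiring of neurons included rises and falls. Of 35 axon guidance genes, 8 rose and 11 fell, with a median of -0.05. That is 22.9% higher and 31.4% lower, against 26.3% and 17.5% of all genes. Lar, a receptor tyrosine phosphatase gene, was at 62.3, 65.4 and 47.7 normalised CPM in elav5/fne and 192, 186 and 211 in Canton-S (-1.74), while the adhesion gene Fas3 was at 177, 164 and 136 in elav5/fne and 65.5, 61.8 and 59.7 in Canton-S (1.33). Of 32 Dpr and DIP genes, which encode immunoglobulin proteins that pair synaptic partners, 17 fell and 2 rose (median -0.49). dpr21 fell by 4.25 and dpr14 by 2.19. Of 21 Beat and Side genes 8 fell (median -0.30). Of 24 genes of the neuronal cytoskeleton and transport 6 rose and 6 fell (25.0% each, median 0.02) with the deposited scaling. With TMM 3 rose and 9 fell (median -0.12).

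Genes that give neurons their identity were mostly not called. Of 10 Hox genes and cofactors, Ubx and hth fell, by 0.80 and 0.34, and none rose. Of 34 neuron subtype transcription factor genes, 4 rose and 3 fell (20.6% called, against 43.7% of all genes), with a median of 0.08 and of -0.03 with TMM. The rises included ind (1.25), otp (0.75) and gsb-n (1.35), and dac fell by 0.52. FoxP, a forkhead factor gene outside the lists, was at 0.371, 2.64 and 1.01 normalised CPM in elav5/fne and 42.6, 48.6 and 44.3 in Canton-S, a change of -4.42 (limma adjusted p = 5.44e-06).

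Genes of neural stem cells rose. Of 15 neuroblast and ganglion mother cell genes, 13 rose and 1 fell, with a median of 1.74 (86.7% higher, against 26.3% of all genes). ase, a bHLH factor gene of neuroblasts, was at 68.5, 63.5 and 54.7 normalised CPM in elav5/fne and 2.35, 4.23 and 5.93 in Canton-S, a change of 3.67 (SE 0.26, limma adjusted p = 7.16e-06). mira, whose protein carries fate determinants at division, was at 127, 122 and 91.8 in elav5/fne and 23.6, 21.6 and 29.0 in Canton-S (2.15). The factor genes klu and grh changed by 2.20 and 1.74. The libraries of the 2 genotypes did not overlap for any of the 15 genes, against 58.5% of all genes. brat, which restrains self-renewal, was the gene that fell (-0.44) and lost its call without any of 3 single libraries, and pros was not called (-0.47). Both were named after their values were seen. Of 14 genes of asymmetric division, 8 rose and 3 fell. l(2)gl was at 279, 270 and 263 in elav5/fne and 34.96, 40.0 and 46.9 in Canton-S (2.71), baz, the Par-3 gene, changed by 2.90, and aPKC, which acts with it, was at 55.8, 64.7 and 59.4 in elav5/fne and 163, 148 and 136 in Canton-S (-1.30).

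The E(spl) bHLH and Bearded family had the largest median of the 61 lists. Of its 15 genes, which are direct targets of Notch signalling or of proneural factors, 14 rose and none fell, with a median of 3.46. Whether either input caused the rise was not tested. Their summed level was 1030, 843 and 524 normalised CPM in elav5/fne, 98.4, 76.6 and 113 in elav5, and 43.8, 52.3 and 56.3 in Canton-S. The lowest elav5/fne library was replicate 3, which had the highest muscle and gut levels. E(spl)mgamma-HLH, a repressor gene, was at 241, 196 and 107 in elav5/fne and 4.06, 5.13 and 5.75 in Canton-S (4.86, SE 0.40, limma adjusted p = 1.58e-05). E(spl)m7-HLH and E(spl)m8-HLH changed by 4.93 and 3.92, and Tom, of the Bearded family, by 3.11. E(spl)m5-HLH, named after its values were seen, was not called.

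N, the Notch receptor gene itself, was at 332, 323 and 309 normalised CPM in elav5/fne, 48.4 on average in elav5, and 33.2, 39.0 and 34.99 in Canton-S. Its change was 3.14 (SE 0.13, limma adjusted p = 5.25e-07), and the gene overlaps no other. Of 13 Notch pathway genes 6 rose and 1 fell (median 0.32), among them spdo, fng and neur, which act on the receptor or its ligands, at 1.43, 1.31 and 1.19. Of 11 proneural factors and partners listed, 7 passed the filter, of which 4 rose and 2 fell. sc, l(1)sc and ato were among those that rose. sc and ato passed the filter only through their elav5/fne levels, so they could not have been seen to fall, and the count of rises tests little. sc was at 11.2, 9.15 and 6.85 in elav5/fne and 0.0501, 0.252 and 0.0599 in Canton-S (3.15), and ato had at most 2.41 in elav5/fne and was at 0 in Canton-S. scrt, a neuronal zinc-finger factor gene, fell by 0.77.

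Of 19 temporal and heterochronic genes, which time neuroblast lineages, 6 rose and 4 fell, with a median of -0.13. Those shares, 31.6% higher and 21.1% lower, lay near the 26.3% and 17.5% over all genes. Syp, an RNA-binding protein gene of late neuroblasts, was at 82.6, 84.0 and 73.7 normalised CPM in elav5/fne and 2.85, 6.44 and 3.60 in Canton-S (3.99, SE 0.30, limma adjusted p = 1.02e-05). lin-28 was at 183, 155 and 151 in elav5/fne and 25.0, 20.3 and 25.2 in Canton-S (2.74), and cas rose by 2.43. br, another of these factors, fell by 0.87.

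Cell cycle genes rose in part. Of 34 cell cycle and mitosis genes, 15 rose and 3 fell, with a median of 0.51. dap, an inhibitor of Cyclin E/Cdk2, was at 278, 237 and 182 normalised CPM in elav5/fne and 15.2, 17.0 and 19.9 in Canton-S (3.65, limma adjusted p = 2.49e-06). stg, the Cdc25 phosphatase gene that starts mitosis, was at 254, 220 and 155 in elav5/fne and 37.1, 29.0 and 24.3 in Canton-S (2.75), and CycA and polo changed by 1.38 and 1.65. Both the inhibitor and the activator were higher in all 3 mutant libraries. Of 23 DNA replication genes, Cdc6 rose by 1.04, and Prim2 and RfC3 fell by 0.86 and 0.94. Prim2 and RfC3 each lost their call without any of 4 single libraries, and without the 3 libraries highest in muscle and gut (elav5/fne replicates 2 and 3, and elav5 replicate 1) Cdc6, Prim2 and RfC3 had limma adjusted p of 0.105, 0.0912 and 0.439. The other 20 were not called, and the median was 0.02 with the deposited scaling and -0.09 with TMM.

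**Figure D3:**
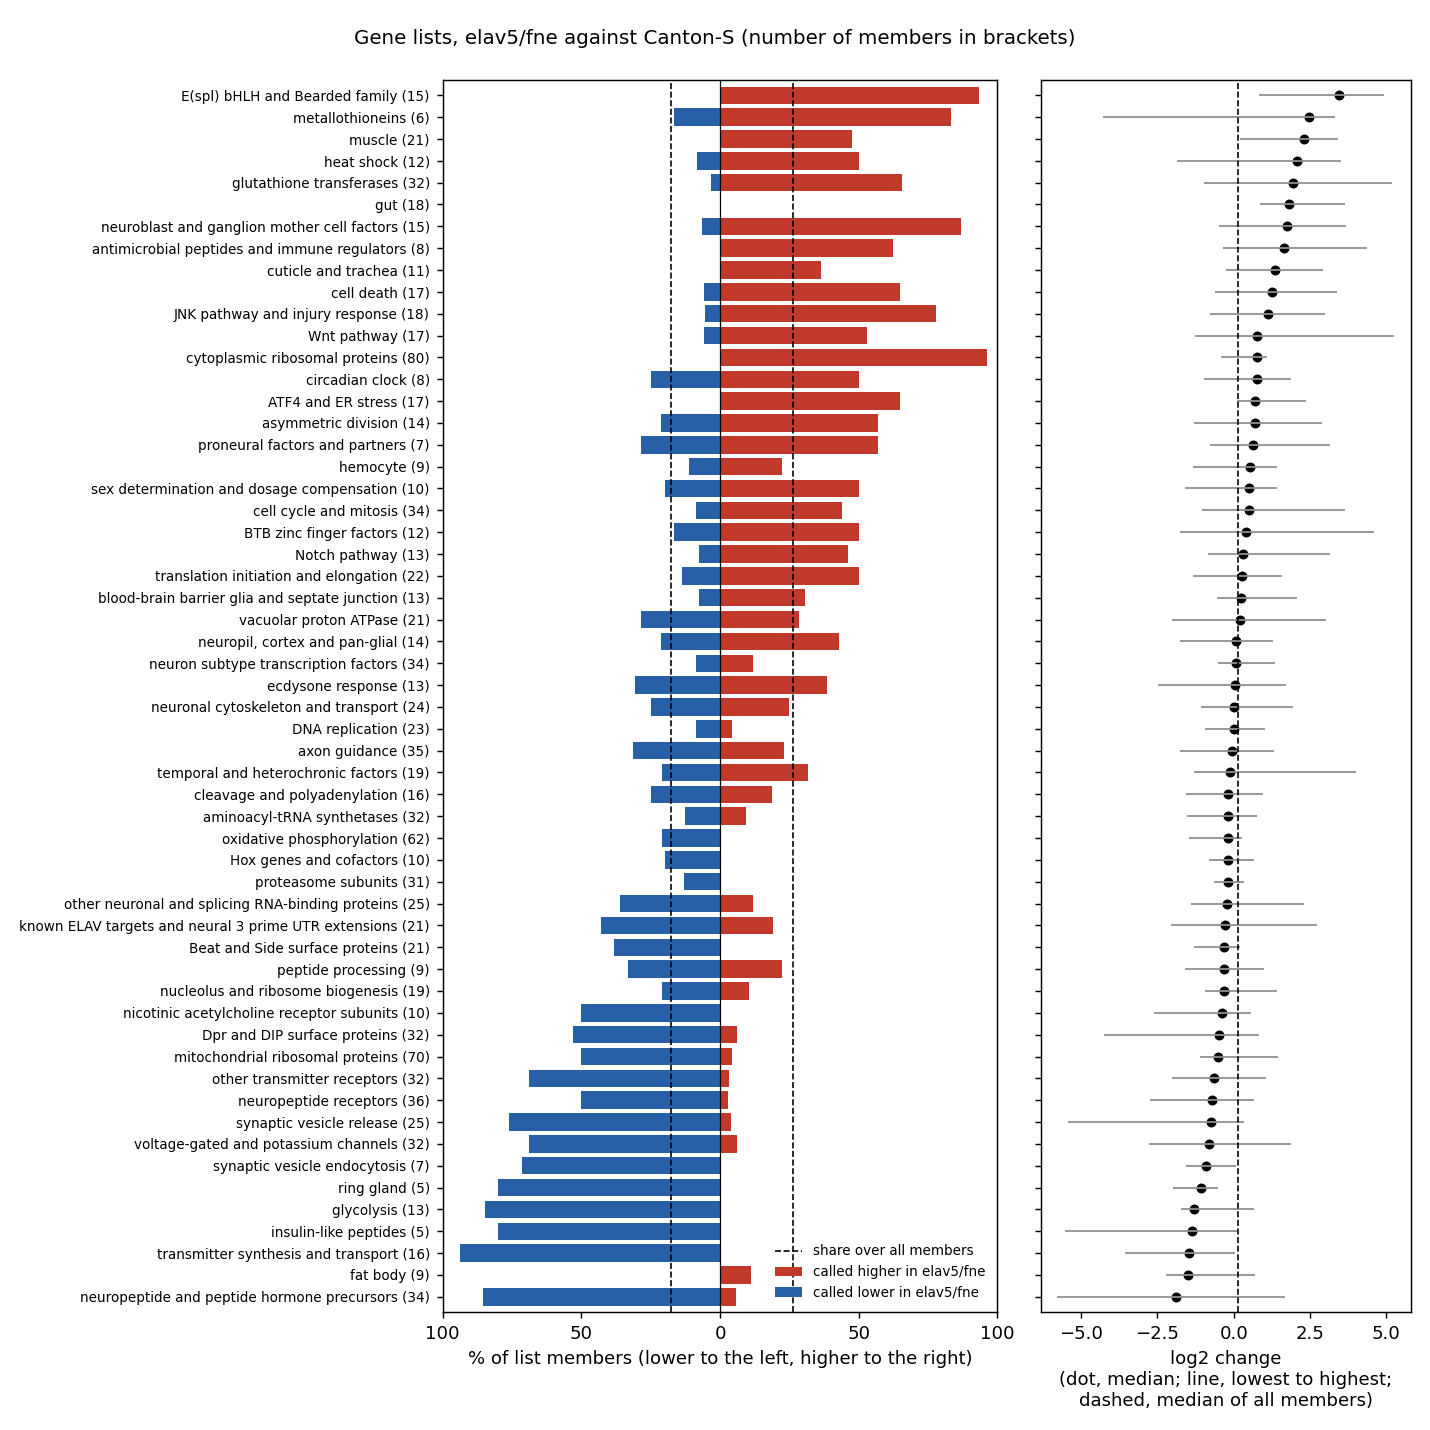
Share of genes called, for each list of at least 5 tested genes other than the long noncoding and antisense RNA lists, as higher and lower in elav5/fne against Canton-S (left, percent of the genes tested, number in brackets), and the median and range of their log2 changes (right). Dashed lines mark the values over all 9427 genes, 26.3% higher, 17.5% lower and a median of 0.15; lists run by median, from E(spl) genes at 3.46 to neuropeptide genes at -1.89.

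A further fit left out those 3 libraries highest in muscle and gut, which leaves 1 double mutant library. It reused Canton-S and mutant libraries by which the 4124 calls were chosen. Whether those genes keep their sign in it therefore tests little. The counts of lower genes were then 2 for insulin-like peptides, 2 for nicotinic subunits, 5 for axon guidance, 11 for Dpr and DIP, 2 for Beat and Side, 0 for Hox and for neuron subtype factors, 2 for temporal factors and 1 for cell cycle genes. Temporal factors had 3 higher. The remaining neuronal and progenitor groups kept a count within 1.5 times of that given, apart from counts of 1 or 2.

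Genes of cell death and stress rose. Of 17 cell death genes, 11 rose and 1 fell, with a median of 1.25. hid, an antagonist of the caspase inhibitor Diap1, was at 31.3, 23.2 and 19.7 normalised CPM in elav5/fne and 3.21, 2.67 and 2.04 in Canton-S (2.81, SE 0.22, limma adjusted p = 1.26e-05). Its relatives skl and rpr changed by 3.37 and 3.04. The libraries of the 2 genotypes did not overlap for 12 of the 17 cell death genes, against 58.5% of all genes. Diap1 itself was at 600, 604 and 400 in elav5/fne and 287, 281 and 345 in Canton-S (0.79), and Drice, a caspase gene, changed by 1.25. Diap1 and Drice were named after their values were seen.

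Of 18 genes of the JNK pathway and injury response, 14 rose and 1 fell, with a median of 1.12. egr, the TNF ligand gene, was at 45.6, 46.3 and 43.9 normalised CPM in elav5/fne and 12.1, 12.8 and 7.97 in Canton-S (1.98). Mmp1, a matrix protease, and puc, the phosphatase induced by JNK, changed by 2.98 and 1.96 (limma adjusted p = 4.04e-05 and 9.60e-05). Xrp1, a stress factor gene, changed by 1.70. Of 17 genes of ATF4 and ER stress 11 rose and none fell, and Hsc70-3, the ER chaperone BiP, was at 1089, 1120 and 769 in elav5/fne and 221, 344 and 272 in Canton-S (1.83).

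Of 32 glutathione transferase genes, 21 rose and 1 fell, with a median of 1.95. GstE6 was at 120, 110 and 122 normalised CPM in elav5/fne and 5.76, 6.995 and 5.15 in Canton-S (4.09, SE 0.19, limma adjusted p = 9.54e-07). GstD2 was at 277, 135 and 92.6 in elav5/fne, 98.0 on average in elav5, and 1.55, 2.77 and 6.53 in Canton-S (5.19). Of 6 metallothionein genes 5 rose, MtnA by 2.31, and MtnF fell by 4.27. With TMM 3 metallothionein genes rose, and without the 3 libraries highest in muscle and gut 3 rose, where the list median was 1.16 against 2.46 with all libraries. MtnB and MtnD were highest in elav5/fne replicate 3, at 31.1 and 67.0. The heat shock list had 6 rises and 1 fall of 12, with Hsp26 at 708, 1271 and 757 in elav5/fne and 22.9, 162 and 117 in Canton-S (3.51, adjusted p = 0.0041). No heat shock rise was called without the 3 libraries highest in muscle and gut, where Hsp26 had a limma adjusted p of 0.0756.

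Of 20 antimicrobial peptide and immune regulator genes listed, 8 passed the filter, of which 5 rose and none fell. edgeR called 3 of the 8 and DESeq2 5. Of the 20, 3 to 5 were at 0 in each elav5/fne library and 2 to 10 in each Canton-S library. A gene near 0 in Canton-S could pass the filter through elav5/fne alone. dl, the NF-kappaB factor gene dorsal, was at 359, 284 and 277 normalised CPM in elav5/fne and 15.4, 18.7 and 18.3 in Canton-S (4.05, limma adjusted p = 5.32e-06). Rel, the NF-kappaB gene of the Imd pathway, changed by 1.82. The peptide gene Drs was at 16.9, 61.8 and 142 in elav5/fne and 0.551, 5.79 and 0.719 in Canton-S, and lost its call with the 3 libraries out (limma adjusted p = 0.125). Its levels were in the same order over the elav5/fne libraries as the muscle and gut sums. Whether those tissues contribute to it was not tested.

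Ribosomal protein genes rose together by small amounts. Of 80 cytoplasmic ribosomal protein genes, 77 rose and none fell, with a median of 0.77, or 0.63 with TMM, where 75 rose. Their summed level was 170000, 166000 and 173000 normalised CPM in elav5/fne, 154000, 130000 and 161000 in elav5, and 99400, 100000 and 98900 in Canton-S. RpL32 was at 2500, 2308 and 2517 in elav5/fne and 1129, 1214 and 1123 in Canton-S (1.08, SE 0.10, limma adjusted p = 4.10e-05). The 3 genes not called were RpS10a, RpS19b and RpS5b, at 0.66, -0.42 and 0.02, named after their values were seen. The mitochondrial ribosomal protein genes went the other way, with 35 of 70 lower, 3 higher and a median of -0.52. mRpS24 was at 15.7, 18.8 and 18.8 in elav5/fne and 39.5, 38.5 and 39.5 in Canton-S (-1.10), and mRpL45 was an exception at 1.47. Without the 3 libraries named above, 21 mitochondrial ribosomal protein genes were lower and 1 higher, and 68 cytoplasmic ones were higher.

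Of 22 translation factor genes 11 rose and 3 fell. eIF4A, the RNA helicase of initiation, was at 2333, 2156 and 2024 normalised CPM in elav5/fne and 746, 659 and 769 in Canton-S (1.58). pAbp, the poly(A)-binding protein gene, was at 11540, 10950 and 10510 in elav5/fne and 5171, 6273 and 5730 in Canton-S (0.95). Both overlap another gene on the same strand. Nucleolar and ribosome biogenesis genes had 2 rises and 4 falls of 19 (median -0.33), aminoacyl-tRNA synthetase genes 3 and 4 of 32 (median -0.18), and proteasome genes no rise and 4 falls of 31 (median -0.19). In that order the shares were 10.5%, 9.38% and 0.0% higher and 21.1%, 12.5% and 12.9% lower, against 26.3% and 17.5% of all genes. The counts of all these lists depended on the setting. With TMM, 9 nucleolar genes, 7 synthetase genes and 10 proteasome genes were lower and 2, 1 and 0 higher, and 8 translation factor genes were higher and 5 lower. Without the 3 libraries, 0 nucleolar, 1 synthetase and 1 proteasome gene were lower and 2, 1 and 0 higher.

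Glycolysis genes fell. Of 13 genes 11 were lower and none higher, each of the 11 by over 2-fold, with a median of -1.31. Their summed level was 13700, 14100 and 12300 normalised CPM in elav5/fne, 24100, 28300 and 30400 in elav5, and 30000, 30300 and 30100 in Canton-S. Hex-A, the hexokinase gene, was at 548, 535 and 598 in elav5/fne and 1754, 1655 and 1953 in Canton-S (-1.67, SE 0.091, limma adjusted p = 1.81e-06). Ldh, lactate dehydrogenase, was at 627, 486 and 490 in elav5/fne and 1755, 1701 and 1762 in Canton-S (-1.71), and Pgi and Pgk changed by -1.65 and -1.44. The 2 genes not called were Hex-C, a fat body hexokinase, and ERR, a receptor that regulates the pathway, named after their values were seen. Of 62 oxidative phosphorylation genes 13 fell (21.0%, against 17.5% of all genes) and none rose (29 fell with TMM), with a median of -0.19. Of 21 vacuolar proton ATPase genes 6 rose and 6 fell (28.6% each, against 26.3% higher and 17.5% lower of all genes), and Vha36-3 fell by 2.03.

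Of 16 cleavage and polyadenylation genes, 3 rose and 4 fell (median -0.18), which is 18.8% higher and 25.0% lower, against 26.3% and 17.5% of all genes. Named members were CstF50 at 1.36, 1.94 and 1.78 normalised CPM in elav5/fne and 5.51, 9.71 and 6.17 in Canton-S (-1.57), Cpsf6 at -0.84, and Pcf11 at 0.46. Of 25 other neuronal and splicing RNA-binding protein genes 3 rose and 9 fell. shep and Rbp6, a Musashi relative, were at -1.41 and -1.29, and how, a STAR protein gene, was at 200, 205 and 220 in elav5/fne and 40.6, 45.2 and 38.7 in Canton-S (2.30). Of 21 genes known as ELAV targets or for neural 3′ UTR extensions, 4 rose and 9 fell (19.0% and 42.9%, median -0.29). ewg, whose splicing ELAV controls, was at 746, 686 and 633 in elav5/fne and 119, 91.4 and 102 in Canton-S (2.72), and mei-P26, an extended TRIM-NHL gene, was at 767, 742 and 706 in elav5/fne and 2640, 3129 and 3494 in Canton-S (-2.05, limma adjusted p = 4.64e-06). The table has 1 value per gene, so shifts between 3′ ends within a gene were not measured here. Without the 3 libraries, 5 of these 21 genes and 2 cleavage and polyadenylation genes were lower.

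Several regulators of development changed. Of 12 BTB zinc finger list genes 6 rose and 2 fell. ttk, a repressor gene known for blocking neuronal fate, was at 409, 390 and 413 normalised CPM in elav5/fne, 22.2 on average in elav5, and 18.98, 18.4 and 10.8 in Canton-S (4.61, SE 0.29, limma adjusted p = 3.50e-06). lola was at 2173, 1945 and 1973 in elav5/fne and 586, 622 and 624 in Canton-S (1.73), ken changed by 2.82 and jim by -1.76. Of 17 Wnt pathway genes 9 rose and 1, pan, the TCF gene, fell by 1.28. wntD was at 47.8, 41.0 and 26.8 in elav5/fne and had 1 read in 1 of the 3 Canton-S libraries. Of 13 ecdysone response genes 5 rose and 4 fell (38.5% and 30.8%), with Hr3 at -2.47, Eip75B at -1.23 and Eip78C at -1.26, all nuclear receptor genes. Without the 3 libraries highest in muscle and gut, 2 ecdysone response genes were higher and 4 lower.

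Of 8 circadian clock genes 4 rose and 2 fell, with vri at 1.89 and Pdp1 at -0.77. Of 10 genes of sex determination and dosage compensation 5 rose and 2 fell, with 3 rises under TMM and 2 without the 3 libraries. Sxl, the master gene of female development, was at 319, 307 and 275 normalised CPM in elav5/fne, 484 on average in elav5, and 833, 927 and 960 in Canton-S (-1.59). The male dosage compensation RNA genes lncRNA:roX1 and lncRNA:roX2 changed by 1.42 and 1.29, and roX1 averaged 4132 in elav5. The sex makeup of the libraries cannot be told apart from genotype here.

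Of all 9427 genes, the largest changes were in the noncoding RNA genes lncRNA:CR40469 and lncRNA:CR34335 and in w. lncRNA:CR40469 was at 23530, 21980 and 16440 normalised CPM in elav5/fne, 22280 on average in elav5, and 14.6, 194 and 37.0 in Canton-S (8.71, SE 0.71). lncRNA:CR34335 was at 48.3, 80.7 and 24.5 in elav5/fne, 30.7 on average in elav5, and 19190, 14990 and 18390 in Canton-S (-8.54, SE 0.33, limma adjusted p = 5.25e-07). Both were near the same level in the 2 mutant genotypes. w, the white eye pigment transporter gene, was at 245, 236 and 218 in elav5/fne, 1.04 on average in elav5, and 0.401, 0.403 and 1.02 in Canton-S (7.21). It was high in the double mutant libraries alone. Whether strain background contributes to these changes was not tested.

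Other large rises followed the order of the muscle and gut sums over the elav5/fne libraries. CG17738 was at 49.1, 237 and 682 normalised CPM in elav5/fne and 4.21, 3.57 and 2.16 in Canton-S, and CG9759, CG9877, CG9757, TwdlN, a cuticle gene, and CG34166 were also lowest in replicate 1 and highest in replicate 3. CG34166 lost its call without any of 4 single libraries, and with the 3 libraries out it and TwdlN had limma adjusted p of 0.234 and 0.0867. Among the 147 rises over 8-fold, 64 were highest in replicate 3, 28 in replicate 2 and 55 in replicate 1. Of the 40 falls over 8-fold, 28 had their highest mutant level in replicate 2, the library with the highest elav and fne. The part of other tissues in these rises was not tested. Among the falls outside the lists, Men-b, a malic enzyme gene, was at 11.9, 10.3 and 8.75 in elav5/fne and 158, 145 and 138 in Canton-S (-3.72, limma adjusted p = 5.25e-07), and Hs3st-B, a heparan sulfate sulfotransferase gene, changed by -3.95. CG32198 is listed among the 20 largest falls (-4.25) but was at 68.2, 1.96 and 116 in Canton-S and lost its call without any of 5 single libraries.

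Among the genes with the highest levels, Cam, the calmodulin gene, was at 2089, 2195 and 1748 normalised CPM in elav5/fne and 7254, 7325 and 7494 in Canton-S (-1.88). Ald1, the aldolase gene, 14-3-3zeta, Atpalpha, the sodium pump subunit gene, and IA-2, of dense-core vesicles, changed by -1.04, -1.21, -1.20 and -1.03. Oda, the antizyme gene that restrains polyamine synthesis, was at 5222, 5035 and 4691 in elav5/fne and 1609, 1464 and 1778 in Canton-S (1.63). FBgn0037636, an ID not in the annotation used, was at 11700, 10870 and 10290 in elav5/fne and 3403, 3957 and 5117 in Canton-S (1.42, limma adjusted p = 5.89e-05).

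Markers of other tissues were counted in the same way. Of 21 muscle genes, 10 rose and none fell (5 and 0 without the 3 libraries), with a median of 2.29, and of 18 gut genes none was called by limma, with a median of 1.82; 6 had an unadjusted p under 0.05, and edgeR called 2 and DESeq2 5. Without the 3 libraries the gut median was 0.10 and limma called 2 gut genes higher. wupA, the troponin I gene, was at 156, 224 and 280 normalised CPM in elav5/fne and 17.0, 21.7 and 18.3 in Canton-S (3.43, limma adjusted p = 0.0011), while the gut trypsin gene alphaTry was at 9.40, 149 and 298 in elav5/fne and 11.2, 2.62 and 5.45 in Canton-S without a call. Of 11 cuticle and trachea genes 4 rose, of 9 fat body genes 1 rose with a median of -1.51, and of 9 hemocyte genes 2 rose and 1 fell. The mean log2 level of fat body genes, relative to the Canton-S mean, was -1.31, -1.24 and -1.23 in elav5/fne. It was -1.36, 2.84 and -1.48 in Canton-S, so the negative median rests on Canton-S replicate 2. The single salivary gland gene, Sgs7, was not called. Of 5 ring gland genes, of the endocrine gland attached to the brain, 4 fell, with spok, an ecdysone synthesis gene, at 5.13, 4.57 and 5.26 in elav5/fne and 20.2, 21.9 and 25.7 in Canton-S (-1.97). The mean log2 level of the ring gland genes, relative to the Canton-S mean, was -1.24, -0.96 and -1.45 in elav5/fne. In elav5 it was also low, at -1.04, -1.11 and -1.52. Of 3 germline genes, vas and aub rose, and vas was at 34.9, 40.5 and 31.3 in elav5/fne and 1.35, 1.21 and 0.359 in Canton-S (4.24).

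**Figure D4:**
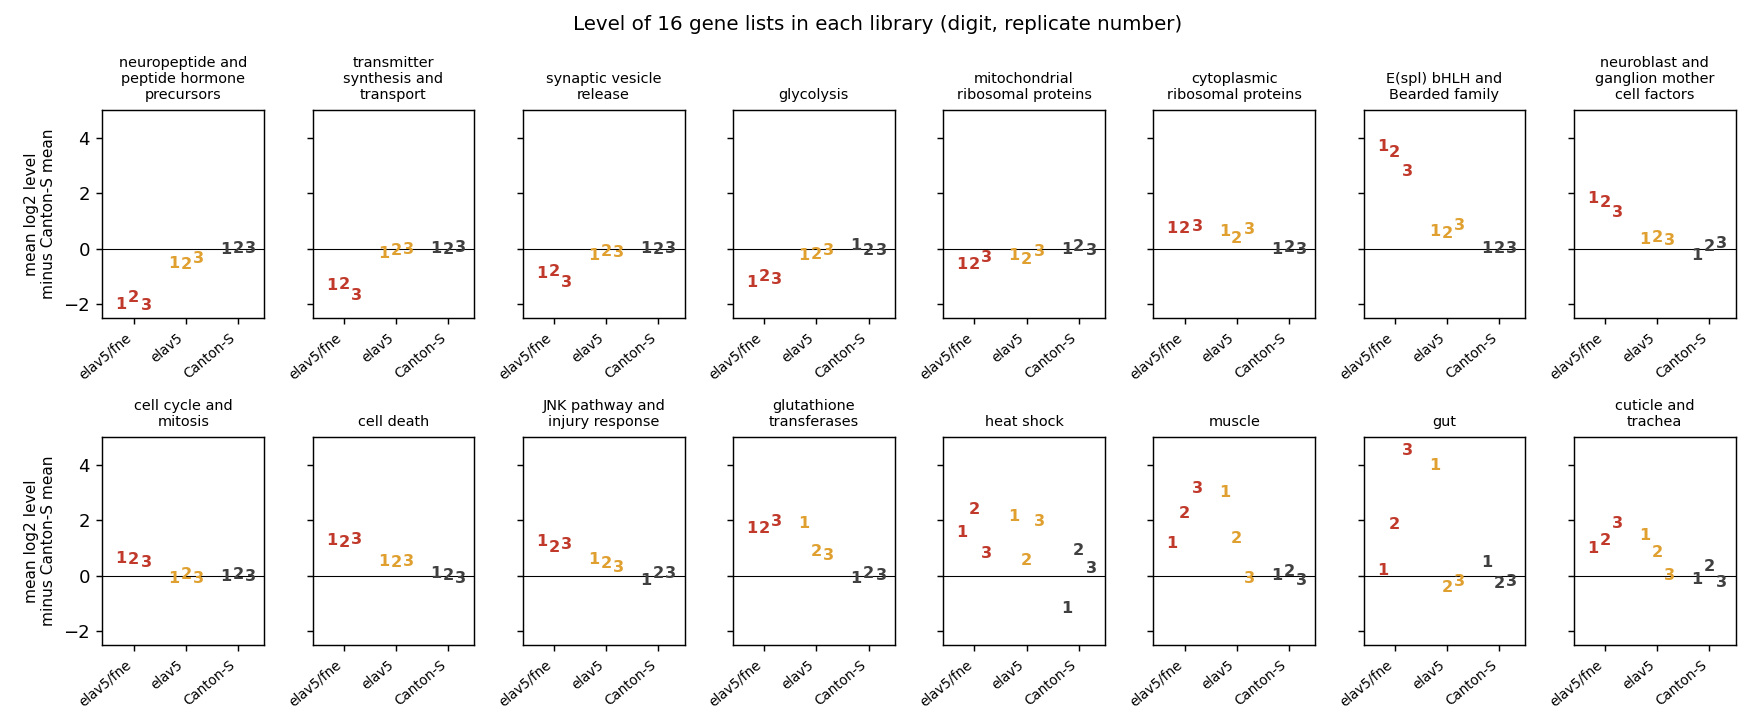
Mean log2 level of gene lists in each library, relative to the Canton-S mean, with elav5/fne left of elav5 and Canton-S and digits for the replicate number. Muscle and gut vary among the libraries of 1 genotype, up to 3.16 and 4.51 in elav5/fne replicate 3, while E(spl) and neuropeptide genes separate elav5/fne from Canton-S in every library.

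Glial genes changed in both directions. Of 14 neuropil, cortex and pan-glial genes 6 rose and 3 fell (42.9% and 21.4%, against 26.3% and 17.5% of all genes). The median was 0.09, or -0.05 with TMM. wrapper, an adhesion gene of glia that wrap axons, was at 10.9, 13.3 and 8.37 normalised CPM in elav5/fne and 45.2, 39.5 and 31.0 in Canton-S (-1.74), and htl, an FGF receptor gene, rose by 1.13. Of 13 genes of blood-brain barrier glia and septate junctions 4 rose and 1 fell (30.8% higher, against 26.3% of all genes). With TMM 3 rose and 3 fell, and without the 3 libraries 2 rose and 1 fell. Lac, a septate junction gene, was at 114.8, 112 and 89.2 in elav5/fne and 16.4, 28.1 and 29.4 in Canton-S (2.09, limma adjusted p = 5.21e-05).

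The elav5 libraries allow the loss of both genes to be set against the loss of elav alone. Of the 9427 genes, 2919 differed between elav5/fne and elav5 (31.0%), with 1779 higher (18.9%) and 1140 lower (12.1%) in the double mutant. This comparison and the one with Canton-S share the elav5/fne libraries. Against elav5, 27 of 34 neuropeptide genes were lower and 1 higher, 15 of 16 genes of transmitter synthesis and transport were lower, 15 of 15 E(spl) and Bearded genes were higher, 11 of 15 neuroblast genes were higher, and 11 of 13 glycolysis genes were lower. For N the difference between elav5/fne and elav5 was 2.72 (limma adjusted p = 2.46e-06), for ttk 4.21, for Snap25 -4.81, for Pdf -2.90 and for Vmat -2.80.

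Stress and translation groups were compared with elav5 in the same way. Of 80 cytoplasmic ribosomal protein genes 16 were higher in the double mutant and none lower. Over all genes 18.9% were higher and 12.1% lower, so the share of these genes that was higher lay near that of all genes. No heat shock gene was higher and 1 was lower, no metallothionein gene was higher and 2 were lower, with a list median of -2.34, and 10 of 32 glutathione transferase genes were higher, with a median of 0.62. For MtnA the difference was 0.07 (limma adjusted p = 0.838), for eIF4A 0.15 and for GstD2 0.76. A p above the threshold does not show that the genotypes are alike, and elav5 replicate 1, with high muscle and gut sums, is in this comparison. Without elav5 replicate 1 and elav5/fne replicates 2 and 3, which leaves 1 elav5/fne library whose spread is assumed to be that of the others, 1360 genes differed.

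Position and gene structure were then described. Genes of the longest quintile (9485 to 1965857 bp) were called lower in 27.6% and higher in 29.0%, against 14.4% lower and 25.0% higher in the shortest quintile (46 to 1300 bp). In the quintile of highest mean level 30.6% were lower and 31.0% higher, with a median of -0.01. In the lowest, where the counts give less precision, 6.42% were lower and 23.5% higher, with a median of 0.51. Medians of this lowest quintile in elav5/fne replicates 1, 2 and 3 were 0.25, 0.41 and 0.66, the order of the muscle and gut sums. Whether those tissues contribute was not tested. Medians of the arms X, 2L, 2R, 3L and 3R lay between 0.12 and 0.17. The 88 genes of chromosome 4 had a median of -0.10, with 31.8% lower and 21.6% higher. Of 17 small nuclear RNA genes, 14 were higher and none lower, with a median of 1.46, and close copies of these genes may share reads.

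Both deleted genes lie on the X chromosome, and their neighbours were counted in coordinates of the BDGP6.54 annotation, whose assembly is that of dm6. On the whole arm 419 of 1561 genes were higher and 234 lower, with a median of 0.17. Of 36 genes within 200 kb of elav, 15 were higher and 1 lower (41.7% and 2.78%), with a median of 0.46. The 3 proneural genes of this interval were ase, l(1)sc and sc, at 46.1, 98.4 and 111.7 kb. svr, at 0.2 kb, was at 233, 224 and 202 normalised CPM in elav5/fne and 319, 322 and 310 in Canton-S (-0.53). arg, which overlaps elav, was not called (1.24, limma adjusted p = 0.0731). Of 27 genes within 200 kb of fne, 5 were higher and 7 lower, and 6 of the 8 genes within 50 kb were lower, with a median of -0.55. hec, a neuropeptide receptor-like gene directly beside fne, had 0, 0.0538 and 0 in elav5/fne, 5.83 on average in elav5, and 6.61, 4.93 and 5.93 in Canton-S. It had 1 read over the 3 double mutant libraries. Whether the deletion reaches hec was not tested.

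**Figure D5:**
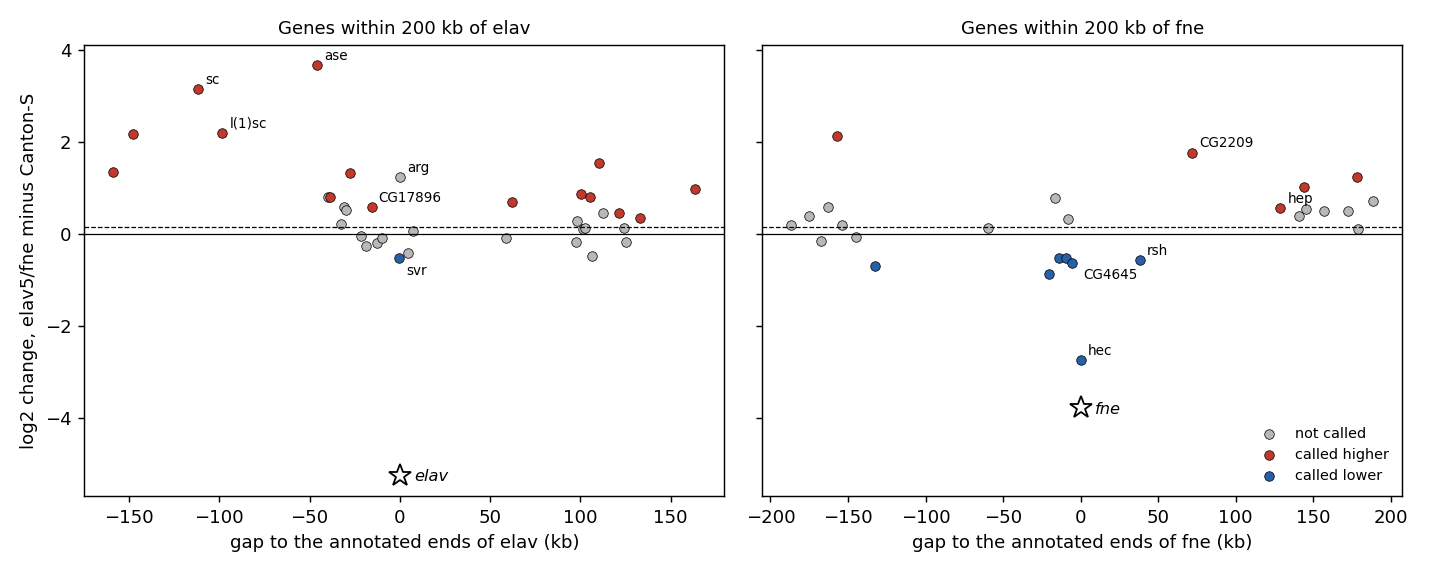
Log2 change (elav5/fne minus Canton-S) of genes on the X chromosome by distance in kb from the ends of elav (left) and of fne (right), with called genes coloured and the median of all genes dashed. On the elav side 15 of 36 genes within 200 kb are higher and 1 is lower, and hec, beside fne, changed by -2.74.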

How the data were processed

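The members and gene lists were chosen with earlier results of these data known. Each of 3 genotypes had 3 libraries, from 40 ng of total RNA each with the Lexogen QuantSeq REV kit, per the labels, and the build was dm6, per the submitters' processing notes. No source used here names the aligner, the counting program or the strand setting. The deposited signal has 1 value per gene and library, for which the authors divided whole reads per gene by 1 size factor per library, as read from the values (100.0% whole within 0.1). They were multiplied by 1e6 over the mean column total of the 9 libraries and called normalised CPM, so that 16 is 0.946. The design assumed CPM, and the planned test was kept. limma 3.58.1 (R 4.3.3) with a trend was fitted on log2(normalised CPM + 1) to all 9 libraries by genotype, for the 9427 genes, with Benjamini-Hochberg adjustment at 0.05, after tests on simulated data.

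IDs were joined to BDGP6.54 (Ensembl release 115): 17251 matched, and 170 did not, of which 104 were tested. Of 61 lists, 28 entries had no match. Named genes were, from the called genes that averaged 10 normalised CPM or more and whose groups did not overlap, the 20 largest rises and falls and the 10 with the highest level on each side among over 2-fold changes, then up to 4 genes per list with the smallest p, and 4 neighbours on each side of elav and fne. Of the 285, 146 overlap a further gene, 67 on its strand. Alternatives were pseudocounts of 0.25 and 5, other filters, 6 libraries alone, the replicate block, TMM, median-of-ratios and total scaling, robust eBayes, edgeR 4.0.16 and DESeq2 1.42.0 on recovered reads, libraries left out, and the muscle level as a covariate. Python 3.11.15 with pandas 2.3.3, numpy 2.4.6, scipy 1.17.1 and matplotlib 3.10.9 was used. Floors and intervals cover counting error only.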

Additional observations from a re-analysis of the deposited data

How the results depend on the processing

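Of 262 called named genes, 212 kept their call in each of 23 settings, and none of their directions turned. The count of calls against Canton-S (4124) was 2569 (1606 higher, 963 lower) without elav5 replicate 1 and elav5/fne replicates 2 and 3, which leaves 1 double mutant library, and 2924 with the muscle level as a covariate. Leaving out 1 library gave 3310 to 4360, and 2915 calls were kept in each of these. Against elav5 (2919) the 3 libraries left out gave 1360, and leaving out 1 gave 2201 to 3053. edgeR on recovered reads called 4134 (2041 higher, 2093 lower) and DESeq2 4560 (2417 and 2143), and median-of-ratios scaling gave 2161 higher and 2072 lower. Scaled to library totals, arm medians were 0.116 for X, 0.076 for 2L, 0.064 for 2R, 0.11 for 3L and 0.077 for 3R, which shows the scaling alone. Deviations of same-numbered libraries of elav5/fne and Canton-S had correlations of -0.246, -0.0929 and -0.239. Muscle and gut levels also vary among libraries and could hide a shared batch, so this cannot tell whether the numbers pair the samples. With the replicate block 3622 genes were called against Canton-S and 2339 against elav5. Among named genes without a call, the sign turned with the muscle covariate for Amy-p (-0.077), Mal-A6 (-0.274), Mal-A1 (-0.314), Sgs7 (-0.021), CG17778 (0.328), arg (-0.141) and vnd (0.311, and 0.307 with 3 libraries out). For Appl it turned with TMM (-0.08), median-of-ratios (-0.057), total scaling (-0.009), edgeR (-0.081) and DESeq2 (-0.057). Leaving out 1 library moved Lsp1alpha between -1.697 and 0.0, AGO3 between -0.407 and 0.138, asRNA:CR44892 between -0.263 and 0.095, Appl between -0.011 and 0.124, and vnd between -0.288 and 0.125. The salivary gland gene had no value under the filter of 80. Causes of these shifts were not tested. Low genes are limited by depth.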

Other observations

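Noncoding transcripts were measured beside protein-coding ones. Of 210 long noncoding RNA genes, 69 were higher and 37 lower in elav5/fne than in Canton-S. These shares were 32.9% and 17.6%, against 26.3% and 17.5% of all 9427 genes, and the median was 0.16 against 0.15. lncRNA:CR44922 was at 41.8, 32.5 and 30.8 normalised CPM in elav5/fne, 170 on average in elav5, and 348, 334 and 335 in Canton-S (-3.25, SE 0.13, limma adjusted p = 5.25e-07). lncRNA:CR42549 and lncRNA:CR31044 changed by 2.17 and 2.09. Without elav5/fne replicates 2 and 3 and elav5 replicate 1, 51 long noncoding RNA genes were higher and 22 lower. Of 55 antisense RNA genes 14 were higher and 12 lower, which is 25.5% and 21.8%, near the shares of all genes. Their median was -0.08, and -0.06 without those libraries. asRNA:CR45822 was at 0 in all elav5/fne and elav5 libraries and at 9.31, 13.7 and 14.02 in Canton-S. Antisense reads cannot be told from those of the partner gene without the strand setting.

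fru, a BTB factor gene best known for male courtship, was at 390, 348 and 395 normalised CPM in elav5/fne, 42.6, 33.2 and 23.4 in elav5, and 108, 80.7 and 90.3 in Canton-S (2.02, limma adjusted p = 3.98e-05), and was named after its values were seen. Of 28 mitochondrially encoded genes 9 were higher and none lower (32.1% higher, against 26.3% of all genes). mt:ATPase6 was at 5566, 6277 and 6424 in elav5/fne and 2733, 2497 and 2670 in Canton-S (1.21).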
